A study of Mus musculus with 6 samples.

Results

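The extracellular matrix is the protein scaffold that fibroblasts and related stromal cells lay down around the epithelium, vessels and muscle of the gut wall. Fibrillar collagens form its tensile fibres, laminins and type IV collagen form the basement membrane under the epithelium and around vessels, and metalloproteinases with their inhibitors, the TIMPs, turn both over. Several of these genes, among them the type IV collagens, the laminins and Vim, are also made by endothelium, pericytes and smooth muscle, so the set marks stroma rather than 1 cell type. The set was a list of 39 gene symbols, drawn up by gene function with earlier results of these data known, of which 38 had a probe set of their own and are described here. All 38 lay above the intensity threshold for dim genes, as part of 13042 genes compared in all, and 1 gene of the list, Fbn1, was not analysed here. Each gene is given by its brightest probe set, and an intensity is the processed brightness of that probe set on a linear scale.

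The study measured whole mouse small intestine after deletion of Fitm2 (FIT2), which encodes an endoplasmic reticulum protein that takes part in lipid droplet formation. KO mice carried ROSA26CreERT2, a Cre recombinase active in the presence of tamoxifen and driven from a locus expressed in most cell types, together with the L/L alleles. Control mice carried the L/L alleles alone, a notation that the labels do not spell out and that usually means loxP-flanked. Tamoxifen went to all groups, 100 µg for each gram of mouse, with injections scheduled for days 1, 2 and 3, and intestines were taken on days 2, 3 and 5. It is not stated whether animals taken on the earlier days were given the remaining doses. Neither sex nor age is stated for the mice in the sources used here. Each array held RNA pooled from 7 KO and 6 L/L mice on day 2, from 6 KO and 6 L/L mice on day 3, and from 7 KO and 8 L/L mice on day 5. With 1 pooled array per genotype and day, a difference on a single day has no replicate and no test, and the spread between mice cannot be seen. Loss of Fitm2 and the presence of an active Cre cannot be told apart in this design.

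Fitm2 itself had intensities of 122.7, 126.6 and 119.6 in KO on days 2, 3 and 5, against 192.7, 223.5 and 210.8 in L/L, without overlap (mean log2 difference -0.76 ± 0.10, SD over 3 days; limma adjusted p = 0.125). Median intensities of the 6 arrays lay between 57.7 and 59.6. The brighter stromal genes were far above the threshold of 38.9. Col3a1, a fibrillar collagen, had intensities between 4998 and 7697, and Dcn, the fibroblast proteoglycan decorin, between 1565 and 2757. Dimmer members lay closer to the threshold, such as Lox between 53.0 and 71.5, Thy1 between 77.8 and 97.7 and Timp1 between 61.3 and 128. In whole tissue, a change in the number of stromal cells and a change in RNA per cell cannot be told apart.

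Matrix and fibroblast genes differed little between KO and L/L on day 2 and were mostly higher in KO on day 5. Over days 2, 3 and 5 the median log2 difference of the 38 genes was 0.06, 0.13 and 0.49, beside 0.01, -0.01 and 0.02 over all 13042 genes. On day 2, 24 of the 38 were higher in KO, on day 3, 31, and on day 5, 36; over all genes these shares were 55.5%, 47.5% and 54%. No member differed by 1.5-fold or more on day 2, where 0.429% of all genes were higher and 0.107% lower by that much, or on day 3, where 1.1% were higher and 0.506% lower. On day 5, 10 of 38 (26.3%) were at least 1.5-fold higher in KO and none was that much lower, against 5.19% and 3.1% of all genes. The 10 were Pdgfra, Timp1, Bgn, Pdgfrb, Col6a1, Mmp2, Lamb1, Mmp14, Col4a2 and Col5a2.

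**Figure D1:**
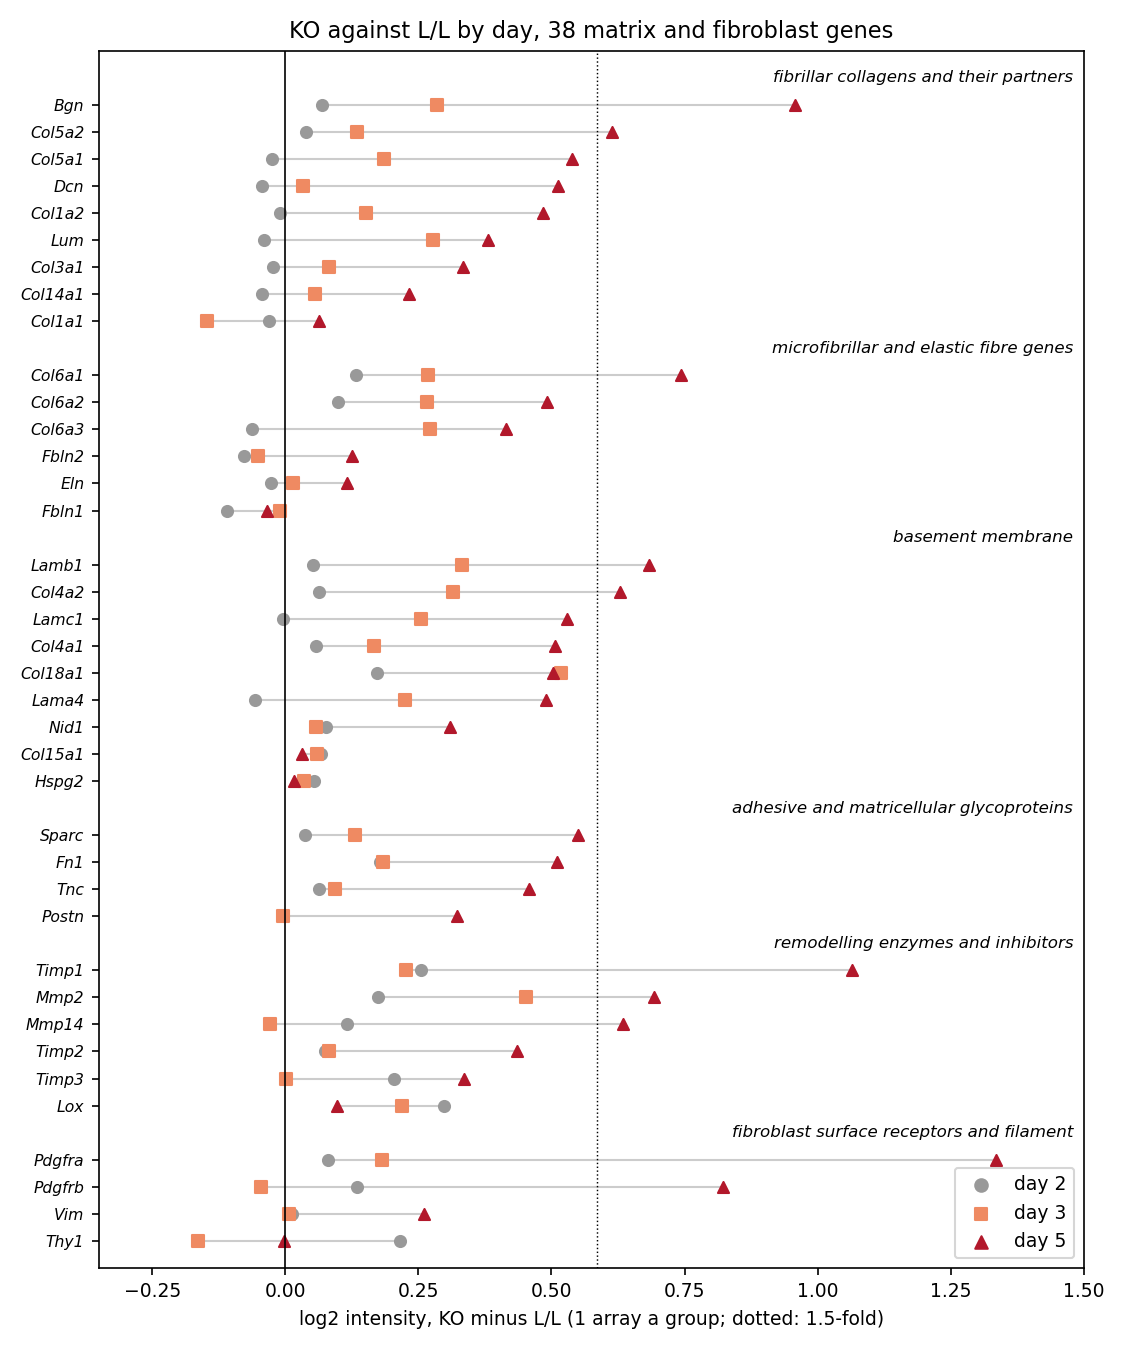
Difference in log2 intensity between KO and L/L for each of the 38 genes on day 2 (circles), day 3 (squares) and day 5 (triangles), grouped by role, with 1 array per genotype and day and dotted lines at 1.5-fold. The day 5 value is the highest of the 3 for most genes, and 10 genes pass the dotted line on that day.

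Over the 3 days together the difference was tested with limma, with day as a factor. No member passed after Benjamini-Hochberg adjustment over all genes, where 0.023% of genes were called higher in KO and 0% lower; adjusted p for members ran from 0.381 to 0.998. At an unadjusted p under 0.05, 9 of 38 (23.7%) were higher in KO and none lower, against 7.68% and 4.61% of all genes. The difference was positive on all 3 days for 21 of 38 genes (55.3%) and negative on all 3 for 1, against 22.1% and 17.4% of all genes. The median difference over the days was 0.21, and it was 0.08 without day 5, 0.26 without day 3 and 0.32 without day 2.

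Whether the difference grew with day was tested as a slope, in log2 units per day. No member passed after adjustment over all genes, where 0.644% of genes had a positive and 0.583% a negative slope past the threshold. At an unadjusted p under 0.05, 22 of 38 (57.9%) had a positive slope and none a negative one, against 10.6% and 7.87% of all genes. Pdgfra (slope 0.44, adjusted p = 0.0531) and Bgn (slope 0.30, adjusted p = 0.0548) lay closest to the threshold. Both passed with a stricter intensity filter, with an offset of 32 before log2, with cyclic loess and with an intensity trend in limma. Neither passed with no filter (adjusted p = 0.182 for each), with median centring (0.0523 and 0.0592) or with limma's robust variance (0.0529 and 0.0546). With the mean of all probe sets Bgn passed and Pdgfra did not (slope 0.26, limma adjusted p = 0.07). Without x, s and a probe sets Pdgfra passed (limma adjusted p = 0.0497) and Bgn did not (0.0547). The fit has 1 residual degree of freedom, so the error behind its p-values comes mostly from the variance that limma pools over genes (4.76 prior degrees of freedom).

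The members were also described by the position of the day 5 arrays among all 6. KO day 5 held the highest of the 6 intensities for 32 of 38 genes (84.2%), against 27.1% of all genes. L/L day 5 held the lowest for 9 of 38 (23.7%), which was close to the 22.8% of all genes. Both applied to 6 of 38 members, against 6.32% of all genes. Set against the mean of the 4 arrays of days 2 and 3, the median member stood 0.44 higher on KO day 5 and 0.07 higher on L/L day 5 on the log2 scale, while the median over all genes was -0.00267 and -0.02. These positions share their arrays with the differences above and are a description.

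**Figure D2:**
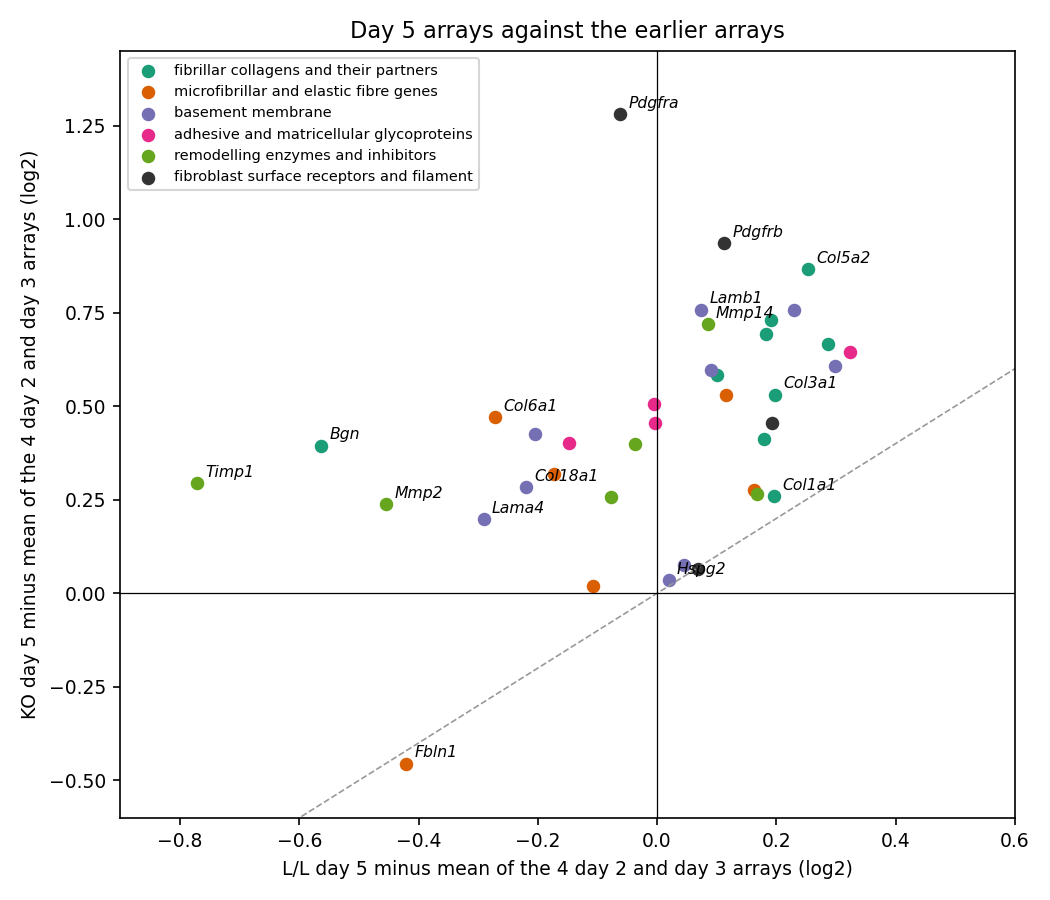
Log2 intensity on KO day 5 (vertical) and on L/L day 5 (horizontal), each minus the mean log2 intensity of the 4 arrays of days 2 and 3, for the 38 genes coloured by role; the dashed line marks equal values. Pdgfra stands highest on the vertical axis at 1.28, Timp1 farthest left at -0.77, and Fbln1 is low on both axes.

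Among the fibroblast receptors, Pdgfra, the PDGF receptor alpha that marks intestinal fibroblasts, had intensities of 699.8, 714 and 1635 in KO on days 2, 3 and 5, against 662, 629.6 and 647.5 in L/L. The KO day 5 array stood apart from the other 5, which lay within 629.6 to 714. The difference was 0.08, 0.18 and 1.34 on the log2 scale, a mean of 0.53 ± 0.70 (SD over 3 days; adjusted p = 0.433). Other probe sets of Pdgfra above the threshold were dimmer and differed less on day 5, by 0.58 and 0.63.

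Pdgfrb, the PDGF receptor beta of pericytes and perivascular fibroblasts, had intensities of 341, 322 and 624 in KO, against 311, 333 and 353 in L/L. KO day 5 again exceeded every other array, with differences of 0.13, -0.05 and 0.82 over the days. A dimmer Pdgfrb probe set differed by 0.01, 0.48 and 0.64, so the probe sets disagreed on day 3. Vim, the intermediate filament vimentin of mesenchymal cells, differed by 0.01, 0.01 and 0.26, and its dimmer probe sets by 0.65 and 0.39 on day 5. Thy1, a surface glycoprotein of fibroblasts and T cells, had intensities of 90.3, 87.2 and 92.1 in KO and of 77.8, 97.7 and 92.2 in L/L, which overlapped, with a mean difference of 0.02. The ligands of these receptors, Pdgfa, Pdgfb and Pdgfc, differed by 0.26, 0.12 and 0.26 on day 5, and none passed either test.

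The fibrillar collagens form the cable-like fibres of the lamina propria and submucosa, and the proteoglycans Dcn, Lum and Bgn bind these fibres and regulate their assembly. These 9 genes had medians of -0.03, 0.14 and 0.48 over the days, and all 9 were higher in KO on day 5, 2 of them by 1.5-fold or more. Col3a1 had intensities of 5474, 5289 and 7697 in KO, against 5559, 4998 and 6109 in L/L. The genotypes overlapped over the days, and the difference reached 0.33 on day 5. Col1a2, a chain of type I collagen, had intensities of 2543, 2608 and 3766 in KO, against 2559, 2347 and 2692 in L/L.

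KO day 5 was the highest array for Col1a2, by 0.48 over the next. Col5a1 and Col5a2, whose type V collagen starts the growth of type I fibrils, differed by 0.54 and 0.61 on day 5. Dimmer probe sets differed less on that day, by 0.18 and 0.46 for Col5a1, by 0.17 for Col5a2 and by 0.28 for Col1a2. Col1a1, the partner chain of Col1a2, had intensities of 599, 572 and 723 in KO, against 612, 634 and 692 in L/L, which overlapped, with differences of -0.03, -0.15 and 0.06. A dimmer Col1a1 probe set differed by 0.38 on day 5, so the probe sets of this gene disagreed.

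Bgn, the proteoglycan biglycan, had intensities of 734, 703 and 888 in KO, against 699.8, 576 and 457 in L/L. All 3 KO arrays lay above all 3 L/L arrays, and the gap on day 5 held both a higher KO and a lower L/L array. The difference was 0.07, 0.29 and 0.96, a mean of 0.44 ± 0.46 (adjusted p = 0.41), and other Bgn probe sets differed by 0.89 and 1.43 on day 5. Dcn differed by 0.51 on day 5 and Lum, lumican, by 0.38. Lum had intensities of 603, 579 and 900.0 in KO, against 620.1, 478 and 691 in L/L, so that L/L was lowest on day 3. Col14a1, a collagen on the surface of fibrils, differed by 0.23 on day 5.

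Among microfibrillar and elastic fibre genes, the type VI collagen chains, which form beaded filaments around cells, stood above the rest. Col6a1 differed by 0.13, 0.27 and 0.74, Col6a2 by 0.10, 0.27 and 0.49 and Col6a3 by -0.06, 0.27 and 0.41. Col6a1 and Col6a2 had no overlap between the genotypes, with Col6a1 at 834, 829.5 and 1075 in KO against 761, 689 and 643 in L/L. Eln, the elastin gene, had intensities of 187, 179 and 222 in KO and of 191, 177 and 205 in L/L, which overlapped (mean difference 0.03 ± 0.07, adjusted p = 0.82). Fbln2, the elastic fibre glycoprotein fibulin-2, lay between 97.2 and 104 in KO and between 95.1 and 109 in L/L, a mean difference of -0.000927.

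Fbln1, fibulin-1, was the member with the lowest mean difference (-0.05 ± 0.05, adjusted p = 0.713). Its intensity was 2784, 2430 and 1938 in KO on days 2, 3 and 5, against 3004, 2447 and 1984 in L/L. Unlike most members it was lowest on day 5 in both genotypes, with day 5 against day 2 at -0.52 in KO and -0.60 in L/L. Over both genotypes that difference was -0.56 (limma adjusted p = 0.0995), which did not pass. Dimmer Fbln1 probe sets differed between KO and L/L by -0.22 and -0.33 on day 5.

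**Figure D3:**
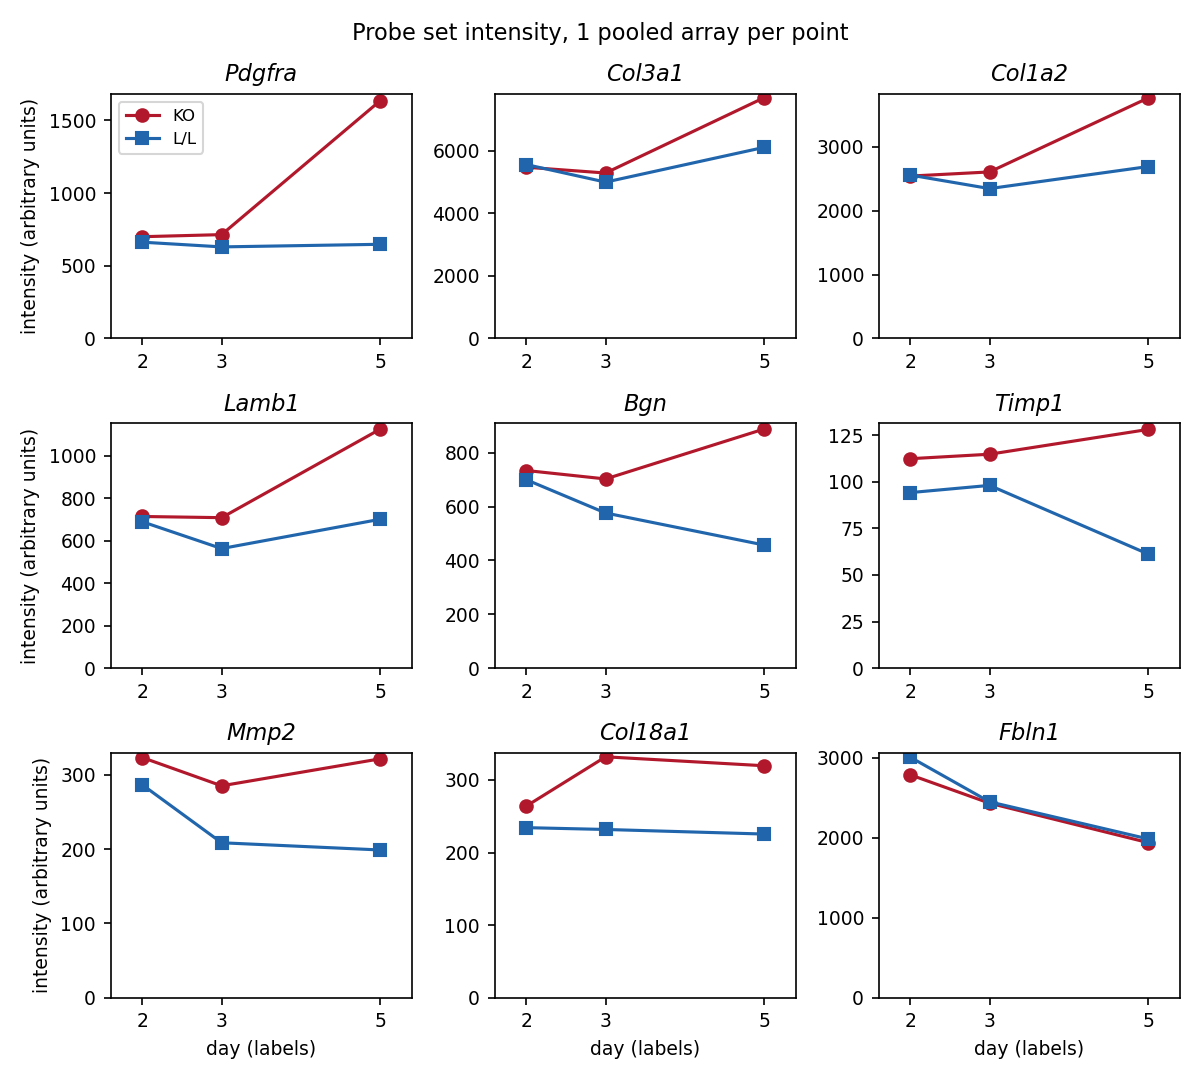
Intensity of 9 members on days 2, 3 and 5 in KO (circles) and L/L (squares), 1 pooled array per point, with vertical axes from 0. Pdgfra, Col3a1, Col1a2 and Lamb1 are highest in KO on day 5, Bgn, Timp1 and Mmp2 are lower in L/L on day 5 than on day 2, Col18a1 is higher in KO on every day, and the Fbln1 lines run together.

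In the basement membrane group, all 9 genes were higher in KO on days 3 and 5, and 7 were higher on all 3 days. Their medians over the days were 0.06, 0.23 and 0.50. Col18a1, the source of the fragment endostatin, had intensities of 264, 332 and 319 in KO, against 234, 232 and 225 in L/L. The genotypes did not overlap, and the difference was 0.17, 0.52 and 0.50 over the days (mean 0.40 ± 0.20, adjusted p = 0.381). A dimmer Col18a1 probe set differed by 0.13, 0.38 and 0.99, so a day 3 value as high as that of day 5 was seen in the brightest one alone. Lamb1, the laminin beta 1 chain, had intensities of 715, 709 and 1126 in KO, against 689.7, 563 and 701 in L/L, with differences of 0.05, 0.33 and 0.68. Lamc1 and Lama4, the laminin gamma 1 and alpha 4 chains, differed by 0.53 and 0.49 on day 5.

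Nid1, nidogen, which links laminin to type IV collagen, differed by 0.31 on day 5. Hspg2, the proteoglycan perlecan, and Col15a1 were close to 0 on every day, at 0.05, 0.04 and 0.02 for Hspg2 and 0.07, 0.06 and 0.03 for Col15a1. A dimmer Hspg2 probe set differed by 0.42 on day 5, which its brightest probe set did not show.

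Col4a1 and Col4a2, the main chains of type IV collagen, are neighbours on chromosome 8 and are transcribed in opposite directions. In RefSeq's GRCm38.p6 promoter windows of 300 bases, Col4a1 at chr8:11312777-11313076 on the minus strand and Col4a2 at chr8:11312555-11312854 on the plus strand overlap by 78 bases. Col4a1 had intensities of 1256, 1218 and 1800 in KO, against 1207, 1085 and 1266 in L/L. Col4a2 had intensities of 751, 779.7 and 963 in KO, against 719, 627 and 622 in L/L. The differences were 0.06, 0.17 and 0.51 for Col4a1 and 0.06, 0.32 and 0.63 for Col4a2. A dimmer Col4a1 probe set differed by 0.21 on day 5.

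Of the adhesive and matricellular glycoproteins, Fn1, fibronectin, had intensities of 948, 911 and 1240 in KO, against 838, 802 and 870 in L/L, without overlap (mean 0.29 ± 0.19, adjusted p = 0.381), and a dimmer probe set differed by 0.68, 0.44 and 0.83. Sparc, a collagen-binding glycoprotein, differed by 0.55 on day 5, Tnc, tenascin-C, by 0.46, and Postn, periostin, by 0.32. Sparc probe sets disagreed, at 0.21 and -0.25 on day 5 for dimmer ones. The 4 Postn arrays of days 2 and 3 lay between 749.7 and 774.3 in intensity, against 1192 in KO and 953 in L/L on day 5.

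The remodelling group had the highest day 2 median, 0.19, and medians of 0.15 on day 3 and 0.54 on day 5. Timp1, a secreted inhibitor of metalloproteinases, had intensities of 112, 115 and 128 in KO, against 94.2, 98.1 and 61.3 in L/L. All KO arrays exceeded all L/L arrays, and the difference of 0.25, 0.23 and 1.06 came with a lower L/L array on day 5 more than with a higher KO array (mean 0.52 ± 0.48, adjusted p = 0.394). Timp1 is a dim member, and with an offset of 32 before log2 its mean difference was 0.38. Mmp2, gelatinase A, had intensities of 323, 285 and 321.5 in KO, against 286.5, 209 and 199 in L/L. Its KO arrays on days 2 and 5 were nearly equal, while L/L was lower on days 3 and 5, giving 0.17, 0.45 and 0.69 (mean 0.44 ± 0.26, adjusted p = 0.381). A second Mmp2 probe set differed by 0.15, 0.44 and 0.77.

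Mmp14, the membrane-bound protease that activates Mmp2, had intensities of 344.5, 375 and 583 in KO, against 318, 383 and 376 in L/L. Its KO day 5 array stood above the other 5, while 2 dimmer probe sets, which differed by 0.92 and 0.81 on day 5, also had their lowest L/L intensity on that day. Timp2 and Timp3 differed by 0.44 and 0.34 on day 5. Lox, the collagen crosslinking enzyme lysyl oxidase, differed by 0.30, 0.22 and 0.10 by its brightest probe set and by 0.01, 0.01 and 0.17 by a dimmer one, so its probe sets disagreed on the order of the days. Dimmer Timp3 probe sets differed by -0.09, -0.00 and 0.32 on day 5.

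Sequence upstream of the transcription start is shown for 4 members: Col3a1 and Col1a2, fibrillar genes whose day 5 difference lay with KO, and Bgn and Timp1, whose difference also held a lower L/L array. The 250 bases before the start are from RefSeq (GRCm38.p6, plus strand), at chr1:45311288-45311537 for Col3a1, chr6:4505368-4505617 for Col1a2, chrX:73483351-73483600 for Bgn and chrX:20869916-20870165 for Timp1. Capitals mark matches on either strand to the TATA box TATAAA, the CCAAT box CCAAT, the GC box GGGCGG, the AP-1 motif TGANTCA and the SMAD motif CAGACA; matches may overlap.
Col3a1: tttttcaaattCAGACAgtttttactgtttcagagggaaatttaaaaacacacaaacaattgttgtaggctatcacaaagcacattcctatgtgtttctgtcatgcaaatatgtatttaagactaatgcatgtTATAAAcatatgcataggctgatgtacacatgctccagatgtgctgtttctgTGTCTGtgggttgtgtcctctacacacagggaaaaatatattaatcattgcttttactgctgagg
Col1a2: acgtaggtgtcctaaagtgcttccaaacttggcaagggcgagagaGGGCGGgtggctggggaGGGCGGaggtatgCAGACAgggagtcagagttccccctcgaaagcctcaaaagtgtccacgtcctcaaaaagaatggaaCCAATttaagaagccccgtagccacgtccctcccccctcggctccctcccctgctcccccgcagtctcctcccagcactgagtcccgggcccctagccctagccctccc
Bgn: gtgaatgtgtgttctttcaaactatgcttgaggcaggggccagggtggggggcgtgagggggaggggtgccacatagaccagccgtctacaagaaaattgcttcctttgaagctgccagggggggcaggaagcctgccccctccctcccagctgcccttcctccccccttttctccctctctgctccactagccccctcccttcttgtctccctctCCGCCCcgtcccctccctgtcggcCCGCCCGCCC
Timp1: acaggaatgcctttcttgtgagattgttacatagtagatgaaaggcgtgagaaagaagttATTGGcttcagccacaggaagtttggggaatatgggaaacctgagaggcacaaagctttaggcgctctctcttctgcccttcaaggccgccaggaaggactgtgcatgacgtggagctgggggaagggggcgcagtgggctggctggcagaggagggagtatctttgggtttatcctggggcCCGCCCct

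Col3a1 alone of the 4 held TATAAA, at bases -117 to -112 from the start, and the other 3 each held GGGCGG. Upstream windows were at hand for 25 of the 38 members. Members were counted as genes and the background as windows, so the shares are not in the same unit. GGGCGG was present in 16 of them (64%), against 32.7% of 32851 windows of all genes, and CAGACA in 7 (28%), against 17.1%. CCAAT was present in 10 (40%), against 33.8%, TATAAA in 4 (16%), against 12.4%, and TGANTCA in 1 (4%), against 6.75%. The members holding a motif did not form 1 pattern of values: Fbln1 and Hspg2, near 0, held GGGCGG as did Bgn, Lamb1 and Mmp14. A match is a description of letters, not of a bound site.

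Days within L/L show how the members varied without the deletion. Their median difference was -0.11 on day 3 against day 2 and 0.06 on day 5 against day 2, beside 0.03 and -0.01 over all genes. Higher values were held by 10 of 38 members on day 3 against day 2 (58.2% of all genes), by 24 on day 5 against day 2 (48.3%) and by 25 on day 5 against day 3 (42.1%). No member differed by 1.5-fold or more between days 2 and 3, where 0.882% of all genes were higher and 0.736% lower. On day 5 against day 2, none was 1.5-fold higher (1.15% of all genes) and 3 were that much lower (1.77% of all genes), namely Timp1 (-0.62), Bgn (-0.61) and Fbln1 (-0.60). On day 5 against day 3, 1 was lower, Timp1 (-0.68), where 1.42% of all genes were lower and 0.552% higher. Mmp2 stood at -0.53 on day 5 against day 2, and Lum at 0.53 on day 5 against day 3.

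In KO, the median difference was -0.04 on day 3 and 0.38 on day 5, each against day 2. On day 5, 9 members were at least 1.5-fold higher and none that much lower, against 4.63% and 3.63% of all genes. With the genotypes pooled in 1 fit, day 5 against day 2 passed for no member and for no gene (0% higher and 0% lower, limma with Benjamini-Hochberg adjustment). At an unadjusted p under 0.05, 14 of 38 members (36.8%) differed, against 21.1% of all genes. The pooled fit assumes the same change in both genotypes, whereas the members' median from day 2 to day 5 was 0.38 in KO and 0.06 in L/L.

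Other genes of matrix production and its signals were also higher in KO on day 5 by median, by 0.10 to 0.47 against 0.49 for the members. Collagen synthesis and crosslinking genes had medians of -0.02, 0.14 and 0.27 over 17 of 24 listed genes, led by Crtap (0.33 over the days) and Plod1 (0.33), which modify procollagen, and Loxl1 (0.30); none passed. The TGF-beta pathway, the main inducer of matrix genes, had medians of 0.01, 0.06 and 0.26 over 20 genes. Of these 1 passed the slope test: Tgfbr2, the type II receptor, rose with day in KO relative to L/L (slope 0.42, limma adjusted p = 0.0375), with intensities of 785, 1021 and 1830 in KO against 721, 705 and 704 in L/L. Ccn2, a target of the pathway, and Thbs1, which activates latent TGF-beta, had mean differences of 0.49 and 0.52 and did not pass.

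Intestinal mesenchyme signals had medians of 0.02, 0.04 and 0.44 over 20 of 24 genes, and 19 were higher in KO on day 5. Grem1, a BMP inhibitor of subepithelial fibroblasts, passed the slope test (slope 0.43, limma adjusted p = 0.0434), with intensities of 390, 494 and 1188 in KO against 404, 440 and 515 in L/L. Sfrp1, a Wnt inhibitor, and Bmp2 had mean differences of 0.50 and 0.45 and did not pass.

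Further proteases and inhibitors had medians of 0.07, 0.28 and 0.47 over 14 of 24 genes, and none passed. Adamts1, a secreted protease of proteoglycans, differed by 0.59, 0.80 and 1.03 (mean 0.81 ± 0.22, adjusted p = 0.242), and the metalloproteinases Mmp7 and Mmp10 by 0.54 and 0.53 on average. Matrix receptors had medians of 0.02, 0.03 and 0.23 over 20 of 21 genes, led by Cd44, the hyaluronan receptor, at 0.95; none passed.

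Further basement membrane genes had medians of 0.09, 0.18 and 0.47 over 8 of 10. Lamb3, a chain of the epithelial laminin 332, passed the slope test (slope 0.38, limma adjusted p = 0.0447), with intensities of 230, 231 and 345 in KO against 196, 164 and 137 in L/L. Lama3, which joins the same laminin, was lower in KO, at -0.41 on average, without passing. Further collagens had medians of -0.02, 0.10 and 0.10 over 12 of 17, with Col8a2 at -0.42. The slope calls of Tgfbr2, Grem1 and Lamb3 were lost with no intensity filter (limma adjusted p = 0.169 for each), under which no gene of the array passed, and that of Tgfbr2 also with the mean of all its probe sets (adjusted p = 0.0923).

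Several markers of other cell types were also higher in KO on day 5. Fibroblast markers outside the list had medians of 0.02, 0.17 and 0.22 over 14 of 15 genes, with Pdpn at 0.75 and Fap at 0.87 on day 5, and summed intensities of 4469 to 5649 in KO and 4304 to 4340 in L/L. Macrophage markers had medians of 0.10, 0.38 and 0.94, with all 10 higher in KO on days 3 and 5 and sums of 3733, 4341 and 5588 in KO against 3457, 3221 and 2672 in L/L. Pericyte markers (6 of 6) and endothelial markers (10 of 10) were higher in KO on all 3 days, with day 5 medians of 0.40 and 0.41. Pericyte sums were 4286, 4376 and 6177 in KO against 4147, 4088 and 4521 in L/L, and endothelial sums 1954, 1978 and 2168 in KO against 1791, 1691 and 1525 in L/L.

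Mesothelial markers had medians of -0.12, -0.01 and 0.59 over 7 genes. Their sums were 9793, 9809 and 9246 in KO against 9515, 10170 and 6104 in L/L, lowest on L/L day 5. Lrrn4, Wt1 and Msln lay at 127 or less on every array. The sums therefore came almost wholly from other genes of that list, which includes the keratin Krt19. Which gene or cell type carried the lower sum was not tested. Adipocyte markers had medians of -0.01, 0.22 and 0.56 over 7 of 10 genes, with sums of 3058, 3010 and 3264 in KO against 2884, 2578 and 2264 in L/L. Smooth muscle markers had medians of -0.00118, -0.11 and 0.18 over 10 genes. They were higher on day 5 than on day 2 in each genotype, with sums of 28920, 27860 and 42440 in KO against 29190, 29280 and 37370 in L/L. Enterocyte markers stood at 0.01, 0.00 and 0.04 over 11 of 12 genes, with sums between 188300 and 194800 in KO and between 185800 and 193200 in L/L, and enteric neuron and glia markers at 0.05, 0.16 and 0.15 over 8 of 10. Of these lists, 2 macrophage and 2 mesothelial markers passed the slope test with a positive slope, as did 0.644% of all genes. No marker passed the genotype test. The 2 mesothelial markers were Lrrn4 and Wt1, with intensities of 39.7 and 32.9 on L/L day 5, near or under the threshold of 38.9. The part of these cell types in the members' differences was not tested.

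**Figure D4:**
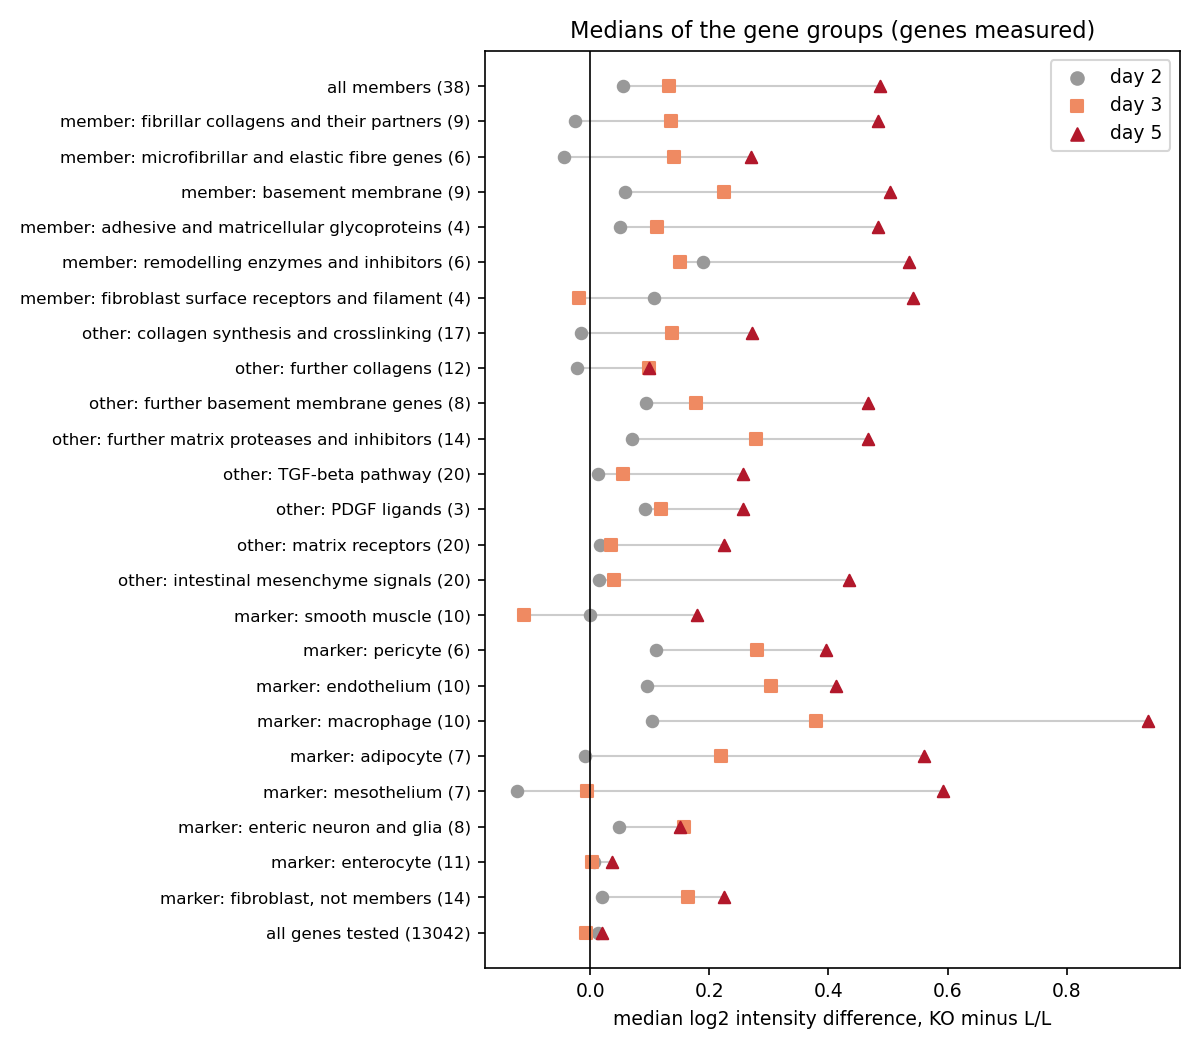
Median difference in log2 intensity between KO and L/L on day 2 (circles), day 3 (squares) and day 5 (triangles) for all members, for the members by role, for other matrix and signalling genes, for markers of other cell types and for all genes tested, with the number of genes measured in brackets. Macrophage markers are highest on day 5 at 0.94, the members stand at 0.49, and enterocyte markers and all genes lie near 0.

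The members' other probe sets gave a check on these values. There were 39 further probe sets above the intensity threshold, for 26 members, and 36 of them had the same sign on day 5 as the brightest one, and 35 the same sign of the mean difference. When a gene was averaged over its probe sets in place of the brightest, the day 5 median was 0.39.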

How the data were processed

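RNA of whole flushed small intestine, pooled per genotype and day, was hybridised to 6 Affymetrix arrays with 45101 probe sets. The deposited values are linear intensities from 3.815 to 31146.4, for which RMA and Partek are named per the submitters' processing notes, with no versions or settings. The planned tests assumed log2 values, so log2 of each intensity was taken here with no offset. Probe sets annotated to 1 gene (34945) were used, with symbols updated through the gene ID to GRCm38.p6, and 932 with several genes and 9160 with none listed were left out. Of 18193 genes, 13042 had a brightest probe set with a mean log2 intensity above the 40th percentile (log2 5.28, intensity 38.9).

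limma 3.58.1 (R 4.3.3) fitted genotype with day as a factor (2 residual degrees of freedom), and genotype by centred day for the slope (1), two-sided, with Benjamini-Hochberg adjustment over all genes at 0.05. Adding day pairs KO with L/L of the same day. Single-day differences have no test, and 1.5-fold (log2 0.585) was used to count them. The limma fits for genotype, slope and day were tested on simulated data with 200 changed genes. False calls were 17 of 209 for genotype, 41 of 239 for slope and 12 of 184 for day. The false share of the slope calls was thus above the 0.05 that the adjustment aims at. The number of arrays, 6, limits the precision.

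The members and the other gene lists were chosen with earlier results of these data known. Values per array were given for the members with the largest and smallest mean differences, those with the largest differences between L/L days and others that show a group's pattern, the last chosen after their values were seen. From each other list up to 3 genes with the largest absolute mean difference, in either direction, were named. Alternatives covered probe set choice, filter, offset, scaling, limma's variance settings, the day term, the fold and leaving out a day.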

Additional observations from a re-analysis of the deposited data

How the results depend on the processing

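The median day 5 difference of the members lay between 0.39 and 0.49 under all settings tried. The median over the days was 0.21, and 0.08 without day 5. The number of members called by slope, 0, became 1 with the mean of all probe sets (Bgn) or without x, s and a probe sets (Pdgfra), 2 with the 60th percentile filter or cyclic loess, 4 with an offset of 32 and 6 with an intensity trend. All genes called by slope numbered 160, against 0 with no filter, 275 with the 60th percentile filter, 550 with the offset and 531 with the trend. All genes called by genotype, 3, became 1 with the mean of all probe sets or without day 2, and 0 without day 3. At 2-fold, 2 members were higher in KO on day 5 in place of 10. The share of all genes past 2-fold is not given here, so this count has no background beside it. Within L/L, members lower on day 5 than on day 2 numbered 1 with the offset and 0 at 2-fold, in place of 3. Those lower on day 5 than on day 3 numbered 0 with the offset or at 2-fold, in place of 1. Those higher on day 5 than on day 3 numbered 1 with the mean of all probe sets, median centring or cyclic loess, in place of 0. The cause of these differences was not tested. With 1 pooled array per genotype and day, KO and L/L could be paired by day alone, which the day factor does. The sign of the mean difference was positive for 35 of 38 members, for 34 with either scaling alternative and for 32 without day 5. Pools of mice on 1 array a group, and 1 degree of freedom in the slope test, limit all these calls.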
